A study of Mus musculus with 3 samples.

Results

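The nuclei described here carried the marker of glutamate neurons and the markers of GABA neurons in the same droplet. They were selected on their own counts, as kept nuclei with at least 2 UMIs (unique molecular identifiers, each standing for 1 captured transcript) of *Slc17a7* and at least 2 UMIs summed over *Gad1*, *Gad2* and *Slc32a1*. A nucleus was kept when it held at least 200 genes and under 10% of mitochondrial counts. By this rule 2047 of 43464 nuclei were members, which is 4.71%. The C57BL/6J library held 401 of 14630 nuclei (2.74%, 95% exact interval 2.48 to 3.02), the *Nav1* KO library 720 of 14056 (5.12%, 4.76 to 5.50) and the BTBR library 926 of 14778 (6.27%, 5.88 to 6.67). The share was thus lowest in C57BL/6J, and none of the 3 intervals overlapped another.

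*Slc17a7* encodes VGLUT1, which loads glutamate into synaptic vesicles and marks most excitatory neurons of the cortex. *Gad1* and *Gad2* encode the enzymes that make GABA from glutamate, and *Slc32a1* encodes VGAT, which loads GABA into vesicles. In the adult cortex these genes mostly mark separate neurons, although neurons that release both transmitters are known in several brain regions. In droplet sequencing the same picture arises when nuclei share a droplet or when free RNA in the suspension is captured along with a nucleus.

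The study sequenced single nuclei from the prefrontal cortex of male mice of 6 to 8 weeks to compare mice lacking neuron navigator 1 with their parent strain. The C57BL/6J library was made from the pooled tissue of 5 wild-type mice, and the *Nav1* KO library from that of 4 mice with a CRISPR deletion in exon 1 of *Nav1* on the C57BL/6J background. The third library came from the inbred strain BTBR T<+> Itpr3<tf>/J, for which the sources used here do not state how many mice were pooled. Nuclei had been stained for DNA and for the neuronal protein NeuN and sorted before loading, which can set the shares of cell types.

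Each group was 1 library, so no test between groups was possible, and every interval below covers counting error only and not the variation between mice. The kept nuclei held 38704723 UMIs in C57BL/6J, 50965774 in the *Nav1* KO and 48948184 in BTBR. Of the kept barcodes, 66 were shared between C57BL/6J and *Nav1* KO, 59 between C57BL/6J and BTBR and 55 between *Nav1* KO and BTBR. Among the nuclei with both classes 1, 1 and 0 barcodes were shared in those pairs.

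*Nav1*, the deleted gene, lies on chromosome 1 from 135434580 to 135607295 of mm10 on the minus strand. It stood at 412 CPM (a gene's share of the summed counts of a set, scaled to a fixed total) in C57BL/6J members (interval 391 to 434), 300.5 in the *Nav1* KO (288 to 314) and 149 in BTBR (142 to 157). Reads came from the 3′ ends of transcripts, away from the deletion in exon 1, so this level does not check the genotype.

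The share of nuclei with both classes was 1.87 times as high in *Nav1* KO as in C57BL/6J (interval of the ratio 1.65 to 2.12), 2.29 times in BTBR (2.03 to 2.58), and 1.22 times in BTBR relative to *Nav1* KO (1.11 to 1.35). The libraries also differed in the markers themselves: 37.3% of C57BL/6J nuclei, 48.5% of *Nav1* KO nuclei and 47.5% of BTBR nuclei held at least 2 UMIs of *Slc17a7*, and 8.63%, 13.1% and 15.3% held at least 2 UMIs of the GABA genes. Of the nuclei that passed the GABA minimum, 31.8%, 39.1% and 41% passed the *Slc17a7* minimum as well.

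The counts that chose these nuclei, given as a description with no test, were low. A median member held 3 UMIs of *Slc17a7* in C57BL/6J, 4 in the *Nav1* KO and 5 in BTBR, and 3 UMIs of the GABA genes in each library. *Slc17a7* made up a median of 57.1% of a nucleus's class UMIs in C57BL/6J, 57.1% in the *Nav1* KO and 60% in BTBR, a share that the minimum of 2 UMIs for each class holds away from either end. The middle 80% of members, from the 10th to the 90th percentile, ran from 37.5% to 75% in C57BL/6J, from 33.3% to 77.8% in the *Nav1* KO and from 33.7% to 78.6% in BTBR. Just inside the threshold, 59, 82 and 88 nuclei held exactly 2 UMIs of each class. Just outside it, 568, 850 and 995 nuclei held at least 2 UMIs of *Slc17a7* and 1 GABA UMI, and 207, 276 and 342 held the reverse. Few members were far above the threshold, since 39, 111 and 179 held at least 5 UMIs of each class, and 0, 16 and 31 held at least 10.

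*Slc17a7* lies on chromosome 7 from 45163949 to 45176142 of mm10 on the plus strand, as given in the GENCODE M21 annotation. The 3 GABA genes all lie on chromosome 2, with *Gad1* from 70553072 to 70602014, *Gad2* from 22622205 to 22693874 and *Slc32a1* from 158610767 to 158615748, each on the plus strand. *Gad1* gave 38.2% of the GABA UMIs of the members in C57BL/6J, 49.8% in the *Nav1* KO and 49.7% in BTBR, beside 38.7%, 46.9% and 46% in nuclei with GABA markers only. *Slc32a1* gave 23.8%, 24% and 22.4% of them, beside 24.9%, 25.7% and 23.1% in the GABA-only nuclei. *Gad2* gave 38%, 26.2% and 28% of them, beside 36.4%, 27.4% and 31%. In BTBR the intervals of members and GABA-only nuclei lay apart for *Gad1* (48.1 to 51.2 and 44.3 to 47.7), and these genes chose both sets, so the values are a description. Nuclei with at least 2 UMIs of *Slc17a7* and a single GABA UMI had a larger part from *Slc32a1*, at 32.2%, 35.5% and 31.8%. *Gad1* and *Gad2* were both detected in 44.4% of members in C57BL/6J, 43.1% in the *Nav1* KO and 51.1% in BTBR.

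The members were deeper than either single-class set of their library. Their median was 6859 UMIs in C57BL/6J, 7646 in the *Nav1* KO and 8185 in BTBR, against 2960, 3740.5 and 3226 in glutamate-only nuclei (at least 2 UMIs of *Slc17a7*, 0 of the GABA genes) and 2210, 2493 and 2371 in GABA-only nuclei (the reverse). The median was 1.33 times the sum of both single-class medians in C57BL/6J, 1.23 times in the *Nav1* KO and 1.46 times in BTBR. Depth is tied to the rule, because a deeper nucleus reaches a UMI minimum more easily, so these ratios are a description. The members held 8.89% of all kept UMIs in C57BL/6J, 13.6% in the *Nav1* KO and 19.5% in BTBR, well above their shares of nuclei. Their median mitochondrial share was 0.465%, 0.467% and 0.386%, between the glutamate-only medians (0.347%, 0.242% and 0.244%) and the GABA-only medians (0.753%, 0.703% and 0.555%).

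The share of nuclei with both classes climbed steeply with depth. In C57BL/6J it was 0.0418% below 1000 UMIs (1 of 2394 nuclei), 6.12% from 4000 to 6000 UMIs (94 of 1535) and 82.2% from 16000 UMIs (37 of 45). In *Nav1* KO the same depths gave 0.0801%, 6.75% and 61.7%, and in BTBR 0.191%, 8.63% and 86.7%. How the libraries compared varied with depth. From 2000 to 3000 UMIs the share was 0.667% in C57BL/6J (interval 0.418 to 1.01), 1.45% in the *Nav1* KO (1.06 to 1.93) and 1.23% in BTBR. From 4000 to 6000 UMIs the C57BL/6J and *Nav1* KO intervals, 4.98 to 7.44 and 5.76 to 7.86, overlapped. From 8000 to 12000 UMIs the share was 35.3% in C57BL/6J, 25.2% in the *Nav1* KO and 42.2% in BTBR, with intervals of C57BL/6J (29.4 to 41.5) and *Nav1* KO (21.9 to 28.6) that lay apart. The order of C57BL/6J and *Nav1* KO was the opposite of the overall order in each of the 4 classes from 6000 UMIs up, as 13.8% and 11.7% were found from 6000 to 8000 UMIs and 51.2% and 43.5% from 12000 to 16000, and in these 2 classes and from 16000 UMIs their intervals overlapped.

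**Figure D1:**
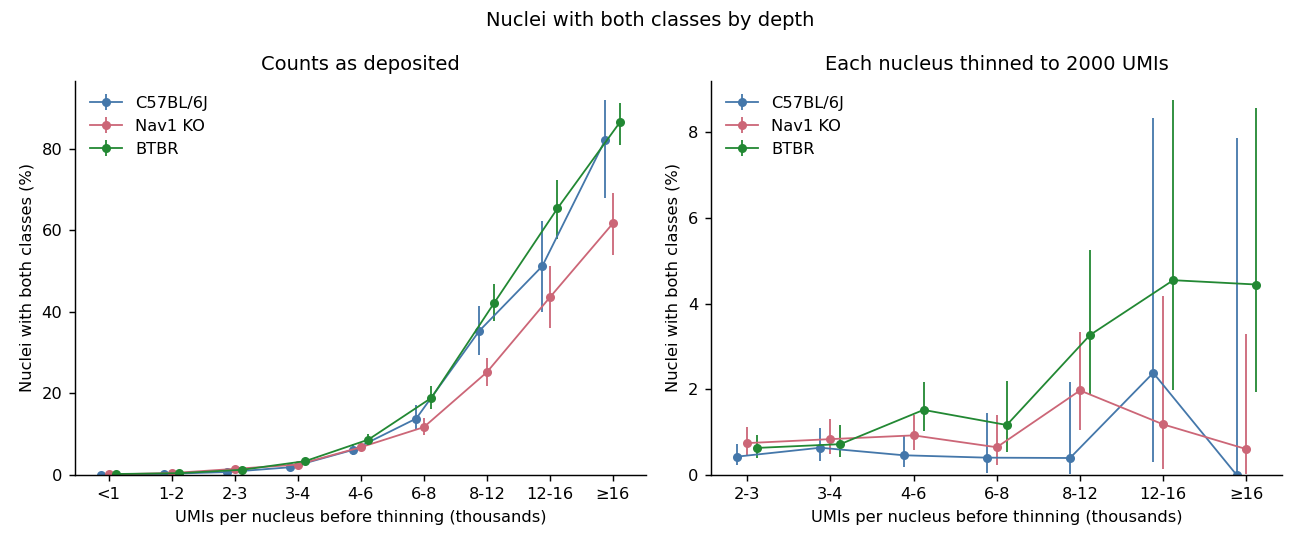
Share of nuclei with both classes (%) in classes of UMIs per nucleus, for the counts as deposited (left) and after each nucleus was thinned to 2000 UMIs (right). Points are libraries with exact 95% intervals for counting error, and the 2 axes differ in scale: the share climbs above 60% at the left in every library and is at most 4.55% at the right.

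To compare nuclei of unequal depth, every nucleus was randomly downsampled to 2000 UMIs, and the 7013, 4577 and 5345 nuclei below that depth were left out. The share with both classes then fell to 0.499% in C57BL/6J (38 nuclei, interval 0.353 to 0.684), 0.886% in the *Nav1* KO (84 nuclei, 0.707 to 1.10) and 1.16% in BTBR (109 nuclei, 0.95 to 1.39). The order of the libraries was the same as before thinning, and the ratios to C57BL/6J were 1.78 (1.20 to 2.68) and 2.32 (1.59 to 3.45), while that of BTBR to *Nav1* KO was 1.30 with an interval that included 1 (0.972 to 1.75). After thinning, the share in C57BL/6J was 0.424% for nuclei of 2000 to 3000 original UMIs and 0.392% for those of 8000 to 12000. In BTBR it was 0.628% and 3.27% in those classes and 4.44% from 16000 UMIs, with intervals (0.398 to 0.940 and 1.94 to 8.57 for the first and last) that did not overlap. The *Nav1* KO values, 0.740%, 1.97% and 0.599%, showed no steady order. Deep nuclei of BTBR thus held both markers more often than shallow ones at an equal number of UMIs. In C57BL/6J only 2 thinned nuclei above 12000 UMIs held both, which does not show whether the same was true there.

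For the gene comparisons, members between the 10th and 90th percentile of their own UMIs were set against single-class nuclei of that range. The range was 3253 to 15764 UMIs in C57BL/6J, 3174 to 18855 in the *Nav1* KO and 3530 to 19901 in BTBR. It held 321, 576 and 740 members, 1921, 3246 and 2136 glutamate-only nuclei, and 150, 289 and 237 GABA-only nuclei. Within the range members were still deeper, with medians of 6859, 7646 and 8185 UMIs against 4489, 4870.5 and 4844.5 in glutamate-only and 4048.5, 4183 and 4436 in GABA-only nuclei. In members of this range *Slc17a7* stood at 525, 600.3 and 640.1 CPM, which is 0.679, 0.693 and 0.684 times its level in glutamate-only nuclei. The sum of the GABA genes stood at 401, 444 and 423 CPM, which is 0.528, 0.506 and 0.490 times its level in GABA-only nuclei. These levels follow from the rule and are given as a description.

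Genes outside the rule that mark either class were found together in the members, and each of the 12 that passed the gene minimum stood at a level between the single-class sets. The sets were chosen on class markers, so these differences are descriptive and carry no test. *Camk2a*, a calcium-dependent kinase of excitatory neurons, stood at 405 CPM in C57BL/6J members, 334 in the *Nav1* KO and 369.9 in BTBR. In glutamate-only nuclei it stood at 543, 459.6 and 480.5 CPM and in GABA-only nuclei at 254, 156 and 195 CPM. *Tbr1*, a transcription factor of deep-layer projection neurons, stood at 29.3, 22.7 and 31.9 CPM in members, beside 39.9, 34.5 and 39.4 in glutamate-only and 6.01, 10.8 and 12.4 in GABA-only nuclei. On the GABA side, *Erbb4*, a neuregulin receptor of interneurons, stood at 69.1, 49.2 and 66.1 CPM in members, beside 7.24, 5.12 and 11.2 in glutamate-only and 182, 128 and 155 in GABA-only nuclei. *Dlx6os1*, a noncoding RNA of the *Dlx5* and *Dlx6* locus that marks forebrain GABA neurons, stood at 100.5, 112 and 98.9 CPM in members, beside 10.6, 6.91 and 11.8 and 229.9, 254 and 221 CPM. In all 3 libraries the members' intervals for *Erbb4* and *Dlx6os1* lay apart from both single-class sets.

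**Figure D2:**
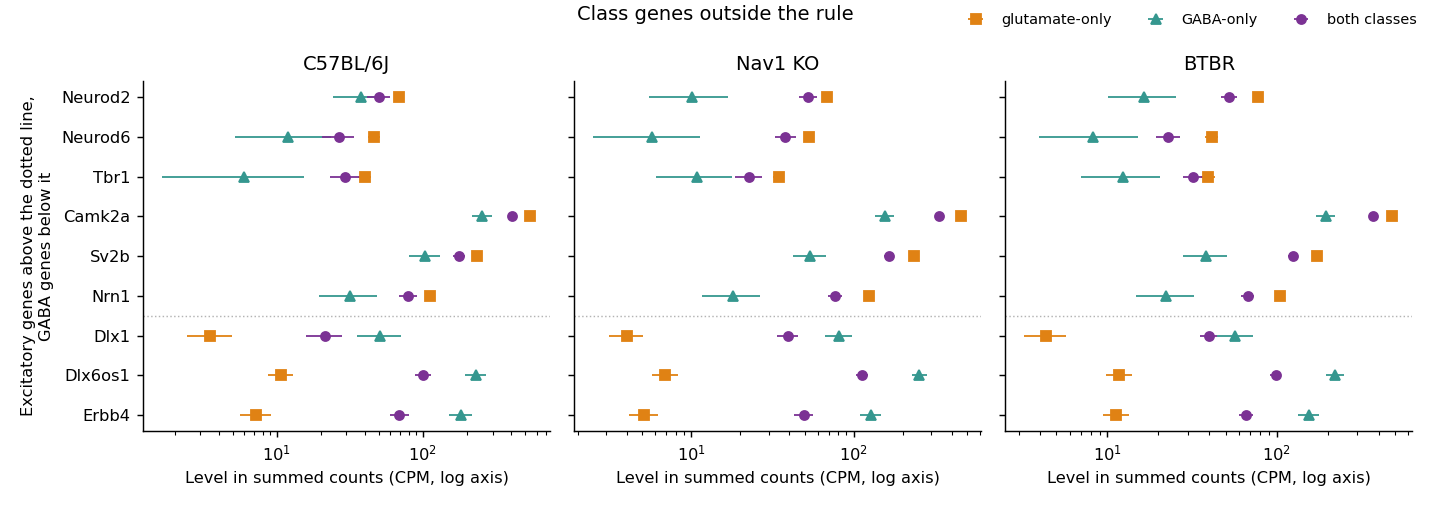
Level in the summed counts (CPM, log axis) of 6 of the tested excitatory genes and 3 of the tested GABA genes outside the rule, in members, glutamate-only and GABA-only nuclei of the same UMI range, with exact 95% Poisson intervals. In each library the members (circles) sit between the single-class sets for all 9 genes shown, as *Camk2a* does in C57BL/6J at 405 CPM between 254 and 543.

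A gene was counted as higher or lower past 1.5-fold, with 5 CPM added to each side, among genes with at least 20 CPM and 20 counts in 1 of the 3 sets. In C57BL/6J 7634 genes were tested, of which 4.4% were higher and 0.432% lower in members than in glutamate-only nuclei, and 6.72% were higher and 4.73% lower than in GABA-only nuclei. In *Nav1* KO the same shares of 8008 genes were 4.83%, 0.2%, 6.77% and 6.83%, and in BTBR, of 8090 genes, 4.93%, 0.198%, 5.33% and 5.33%. Against this background, each of the 5 tested GABA genes outside the rule (such as *Dlx1*, *Dlx6os1* and *Erbb4*) was higher in members than in glutamate-only nuclei in each library. Lower than in GABA-only nuclei were 5, 5 and 4 of them, the exception being *Dlx1* in BTBR at 39.6 CPM beside 57. *Dlx2* and *Dlx5*, the other 2 genes of the list, were below the minimum. The median log2 ratio of these 5 genes to glutamate-only nuclei was 3.24 in C57BL/6J, 3.29 in the *Nav1* KO and 3.05 in BTBR, where the median over all tested genes was 0.08, 0.06 and 0.09.

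Of 8 excitatory genes outside the rule 7 were tested, all but *Slc17a6*, which encodes the vesicular glutamate transporter of subcortical neurons and stood at 4.42, 8.55 and 7.13 CPM in members. Relative to GABA-only nuclei 6 of the 7 were higher in C57BL/6J and 7 in each other library. Relative to glutamate-only nuclei none was higher, and 1, 2 and 3 were lower, among them *Neurod6* in C57BL/6J, *Nrn1* in the *Nav1* KO, and both in BTBR. *Neurod6*, a transcription factor of maturing pyramidal neurons, stood at 26.5 CPM in C57BL/6J members against 46.5 in glutamate-only nuclei, and at 22.9 against 41.2 in BTBR. The excitatory genes thus lay closer to their single-class level than the GABA genes did: their summed level was 0.740, 0.708 and 0.728 times that of glutamate-only nuclei, and the summed GABA genes were 0.425, 0.438 and 0.468 times that of GABA-only nuclei.

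The GABA marker lists that led in members differed between libraries. Marker lists for 4 kinds of GABA neuron were summed in each nucleus, and a nucleus was placed with the list that had at least 3 UMIs and at least 2 times the next. Medium spiny neurons are the projection neurons of the striatum, and *Sst*, *Pvalb*, *Vip* and *Adarb2* mark classes of cortical interneuron. In C57BL/6J 132 of 183 placed members (72.1%) were led by the medium spiny list, 23 by the *Sst* or *Pvalb* list, 18 by the *Vip* or *Adarb2* list and 10 (5.46%) by the olfactory bulb list. In *Nav1* KO the olfactory bulb list led in 190 of 341 placed members (55.7%) and the medium spiny list in 97 (28.4%). In BTBR the olfactory bulb list led in 144 of 354 (40.7%), the medium spiny list in 125 (35.3%) and the *Vip* or *Adarb2* list in 57 (16.1%). Genes known from striatum and olfactory bulb were therefore part of these libraries, whose labels name only prefrontal cortex. However, *Pde10a* of the medium spiny list stood at 860, 577 and 625 CPM in members and also at 519, 430 and 430 CPM in glutamate-only nuclei. In GABA-only nuclei it stood at 1031, 730 and 684 CPM. The medium spiny list is therefore not specific to GABA nuclei here. The olfactory bulb list is not either. Its summed level was 608, 1139 and 973 CPM in members, 339, 367 and 388 in glutamate-only and 759, 1492 and 1145 in GABA-only nuclei. The most abundant gene of that list was *Meis2*, at 524, 809 and 717 CPM over members of all depths.

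The GABA-only nuclei of C57BL/6J and of the *Nav1* KO had the same leading list as the members of that library. In BTBR the olfactory bulb and medium spiny lists led in nearly equal numbers of GABA-only nuclei. The medium spiny list led in 60 of 99 placed GABA-only nuclei in C57BL/6J (60.6%), in 53 of 213 in the *Nav1* KO (24.9%) and in 48 of 156 in BTBR (30.8%). The olfactory bulb list led in 5 of 99 (5.05%), 90 of 213 (42.3%) and 49 of 156 (31.4%). In *Nav1* KO the olfactory bulb share was higher in members, with intervals that lay apart (50.3 to 61.1 and 35.5 to 49.2), but they overlapped when GABA-only nuclei could hold up to 1 UMI of *Slc17a7* (47.2%, 41.4 to 53). The *Sst* or *Pvalb* list had a lower share in members. It led in 12.6% of members and 28.3% of GABA-only nuclei in C57BL/6J, in 9.38% and 21.6% in the *Nav1* KO, and in 7.91% and 22.4% in BTBR, and the intervals of members and GABA-only nuclei did not overlap in any library (8.14 to 18.3 and 19.7 to 38.2 in C57BL/6J). The share of range-matched nuclei that no list led was 43%, 40.8% and 52.2% in members and 34%, 26.3% and 34.2% in GABA-only nuclei. *Pde10a* counts towards the medium spiny list and was also present in glutamate-only nuclei. Its part in the lower *Sst* or *Pvalb* share and the larger unplaced share of members was not tested.

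**Figure D3:**
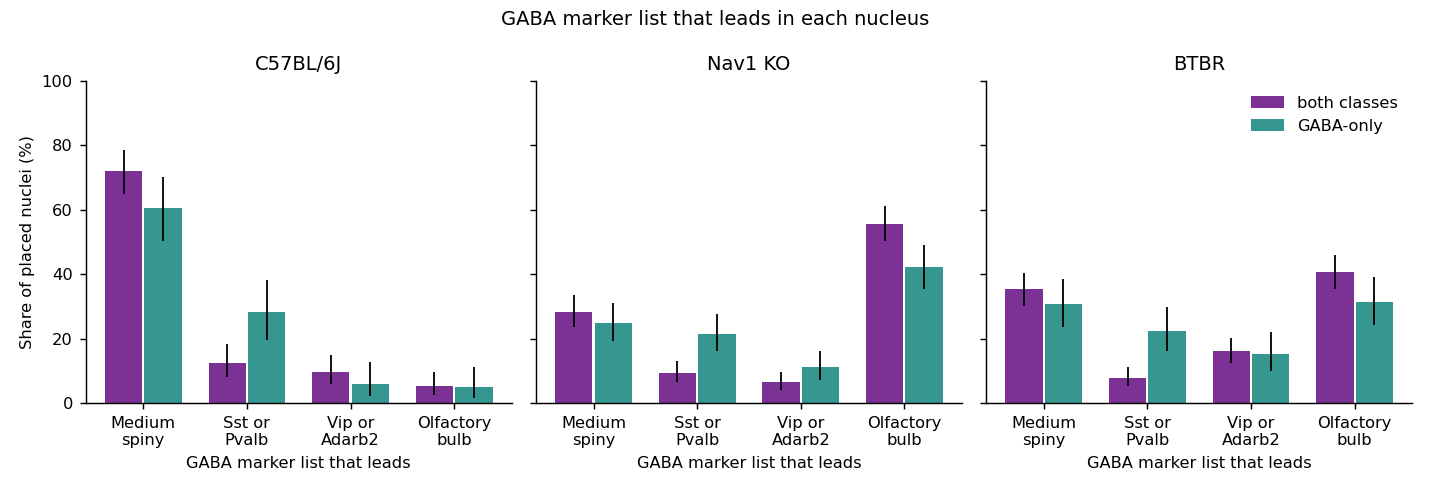
Share of placed nuclei (%) led by each of 4 GABA marker lists, in members and GABA-only nuclei of the same UMI range, with exact 95% intervals. The medium spiny list leads in C57BL/6J (72.1% of members) and the olfactory bulb list in *Nav1* KO (55.7%) and BTBR (40.7%), while *Sst* or *Pvalb* bars are lower in members in each library.

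Single genes of these lists did not all follow the shares. *Rgs9*, a regulator of G protein signaling abundant in striatum, stood at 139 CPM in C57BL/6J members, 71.1 in the *Nav1* KO and 93.4 in BTBR, and *Penk*, the enkephalin precursor, at 133, 112 and 76.5 CPM. Of the tested medium spiny genes 10 of 10, 8 of 9 and 7 of 9 were higher in members than in glutamate-only nuclei. *Pbx3*, a homeobox factor in the olfactory bulb list, stood at 96.5 CPM in C57BL/6J members, 236 in the *Nav1* KO and 211 in BTBR. *Th*, the enzyme of dopamine synthesis that marks periglomerular neurons of the bulb, stood at 1.61 CPM (4 counts) in C57BL/6J and at 17.5 and 14.1 CPM in *Nav1* KO and BTBR. *Sst*, the neuropeptide somatostatin, stood at 470.2, 304 and 238 CPM in members, 0.316, 0.329 and 0.284 times its level in GABA-only nuclei. *Vip*, a neuropeptide of another interneuron class, stood at 114 CPM in C57BL/6J members against 54.1 in GABA-only nuclei, but at 71.7 against 422 in *Nav1* KO and 82.9 against 207 in BTBR. In C57BL/6J, 33 of 321 members held all 284 *Vip* counts, and 1 nucleus held 15.5% of them.

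On the excitatory side, the layer 6 list led more often in members than in glutamate-only nuclei. It led in 66 of 133 placed members in C57BL/6J (49.6%, interval 40.8 to 58.4), in 86 of 229 in the *Nav1* KO (37.6%, 31.3 to 44.2) and in 107 of 270 in BTBR (39.6%, 33.8 to 45.7). In glutamate-only nuclei it led in 31.2%, 24.9% and 25.3%, outside those intervals. However, 3 of the tested layer 6 genes (*Tle4*, *Foxp2* and *Syt6*) were higher in GABA-only than in glutamate-only nuclei as well: *Foxp2*, a forkhead factor of both layer 6 and medium spiny neurons, stood at 78.8, 57.3 and 69.9 CPM in members, 38, 29.9 and 31.3 in glutamate-only and 143, 92.6 and 92.6 in GABA-only nuclei. The layer 6 list is therefore not specific to excitatory nuclei here. The layer 2/3 list led in 32.3%, 29.7% and 23.3% of placed members, beside 41.3%, 38% and 33.1% of glutamate-only nuclei. The mitral or tufted list, for the output neurons of the olfactory bulb, led in 0 of 133 members in C57BL/6J, which allows a share of up to 2.74% by the exact interval, and in 10.9% and 10.4% in *Nav1* KO and BTBR, beside 0.554%, 6.66% and 5.97% of glutamate-only nuclei.

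The pairs of GABA and excitatory lists in the members were counted beside the product of their separate shares. In C57BL/6J 70 members were placed on both sides, and the pair of medium spiny and layer 6 lists was seen in 28, where the product of both shares gave 26.2. In *Nav1* KO, with 136 such members, the pair of olfactory bulb and layer 6 lists was seen in 33 against 31, and olfactory bulb with mitral or tufted in 8 against 8.34. In BTBR, with 139, these pairs were seen in 30 against 27.6 and in 10 against 5.89. The pair of olfactory bulb and layer 2/3 lists was seen there in 9 against 15. Pairs of the cortical interneuron lists were few. *Sst* or *Pvalb* with layer 2/3 was above the product in each library, in 3 against 2.4, 7 against 3.97 and 7 against 3.09, and *Vip* or *Adarb2* with layer 2/3 as well, in 4 against 1.8, 6 against 3.64 and 6 against 5.22. *Sst* or *Pvalb* with layer 6 was below it, in 4 against 4.11, 1 against 4.59 and 3 against 5.71. No test of these counts was made. No pair made up most of the members of a library.

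Genes that set the single-class sets well apart were mostly at a level between them in the members, as a wide gap makes likely. Of genes that differed at least 2-fold between glutamate-only and GABA-only nuclei, 489 of 514 were between the 2 levels in C57BL/6J (95.1%), 806 of 817 in the *Nav1* KO (98.7%) and 634 of 637 in BTBR (99.5%). Past 1.5-fold above both sets were 9 of the 7634 genes in C57BL/6J (0.118%), 0 of 8008 in the *Nav1* KO (0.0%) and 1 of 8090 in BTBR (0.0124%). Past 1.5-fold below both were 2 genes in C57BL/6J (0.0262%), 0 in the *Nav1* KO (0.0%) and 0 in BTBR (0.0%). No gene was called in more than 1 library. The numbers above both sets rested on the UMI range and became 59, 10 and 6 in a narrower one.

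The 9 genes above both sets in C57BL/6J were *Tshz2*, *Jade1*, *Lyn*, *Mag*, *Vip*, *Emc6*, *Rtraf*, *Ghr* and *Ttc33*, and the 2 below were *Cadps2* and *Cmc2*. The gene in BTBR was *Cartpt*, a neuropeptide precursor, at 21.7 CPM against 8.82 and 10.7. These 12 were named after their values were seen. Most were low in the small GABA-only set of C57BL/6J, where *Lyn*, *Emc6* and *Ttc33* each had 7 counts, so that their intervals against it included 1 (0.881 to 5.09 for *Lyn*). *Tshz2*, a zinc finger factor and the only tested gene of the near-projecting list, was above both sets in every library. With 5 CPM added to each side it was past 1.5-fold only in C57BL/6J. It stood at 50.2 CPM in C57BL/6J members, against 23.8 in glutamate-only and 16.5 in GABA-only nuclei. In *Nav1* KO the levels were 83 CPM against 56 and 48.1, and in BTBR 102 against 51.3 and 66.9. Its ratio to either set had an interval above 1 in each library (1.69 to 2.64 and 1.64 to 6.25 in C57BL/6J, 1.32 to 1.67 and 1.33 to 2.27 in the *Nav1* KO, 1.78 to 2.23 and 1.21 to 1.94 in BTBR). The near-projecting list led in only 2 of 133, 5 of 229 and 7 of 270 placed members. The summed mitral or tufted list was above both sets as well, at 62.3, 165 and 185 CPM in members. It stood at 46.8, 139 and 136 CPM in glutamate-only and 30.1, 60.3 and 80.2 in GABA-only nuclei. Which neurons gave the *Tshz2* counts was not tested.

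Among 6686 genes with enough counts in members of all libraries, *Tshz2* had the highest value for its smallest ratio over the higher single-class set, followed by *Nfkb2*, *Kcnj4*, *Col23a1* and *Wtap*. *Kcnj4*, an inwardly rectifying potassium channel, stood at 47.4, 65.9 and 66.4 CPM in members, beside 35.4, 44 and 53.9 in glutamate-only and 36.1, 42.4 and 48.8 in GABA-only nuclei. *Nfkb2*, a subunit of NF-kappaB, stood at 53.1, 33.1 and 50.3 CPM, beside 42.5, 25.4 and 38.6 and 39.1, 22.3 and 33.1. At the other end of 5268 genes were *Lactb2*, *Zbtb1*, *Rngtt*, *Snhg9* and *Cep70*. *Cep70*, a centrosome protein, stood at 207, 133 and 163 CPM in members, beside 241, 163.9 and 214 in glutamate-only and 257, 148 and 212 in GABA-only nuclei. Except for *Tshz2*, each of these genes was within 1.5-fold of the nearer set in each library.

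A 2-part fit of the members' summed CPM from the single-class profiles gave the glutamate-only part a weight of 26.6% in C57BL/6J, 67.6% in the *Nav1* KO and 42.2% in BTBR. *Malat1*, a nuclear noncoding RNA, took 22.1%, 28.2% and 23.7% of the members' counts, against 26.1%, 30.6% and 27.7% in glutamate-only and 22.1%, 28% and 23.9% in GABA-only nuclei. Without it the weights were 62.3%, 67.7% and 65.6% (an alternative added after the data were seen), so the values of C57BL/6J and BTBR rested on this gene and that of the *Nav1* KO did not. The median position between the 2 sets over the 87, 130 and 100 genes at least 4-fold apart was 62.1%, 66.1% and 61.3% of the way towards glutamate-only. By both measures without *Malat1* the members leaned to the glutamate side in each library.

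Genes of transmitter handling outside the class lists behaved like the rest. *Abat*, which breaks down GABA, stood at 35, 25.2 and 25.8 CPM in members, between 10.3, 8.91 and 9.94 in glutamate-only and 67.6, 60.3 and 50.4 in GABA-only nuclei. *Slc17a8*, which encodes VGLUT3 and is known from neurons that release glutamate beside another transmitter, stood at 3.22, 1.46 and 1.93 CPM in members (8, 7 and 13 counts), not above the 16.5, 2.15 and 4.96 CPM of GABA-only nuclei. The receptor genes *Grin1*, *Grin2b*, *Gria1*, *Gria2* and *Gabrb2* and the scaffold genes *Dlg4* and *Gphn* were within 1.5 times of both sets in each library. Of the 14 genes of this list 11, 12 and 12 were tested, and 2 in each library, *Abat* among them, were higher than in glutamate-only nuclei.

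Glial markers were also more frequent in the members. At least 2 UMIs of the oligodendrocyte list (myelin genes such as *Mbp* and *Mag*) were held by 25.2% of members in C57BL/6J, 21% in the *Nav1* KO and 27.3% in BTBR, beside 11.2%, 10.6% and 9.88% of glutamate-only and 16%, 15.6% and 16.5% of GABA-only nuclei of the same range. For microglia, the immune cells of the brain, the shares were 6.54%, 5.03% and 11.2% in members, 0.833%, 1.05% and 1.22% in glutamate-only and 1.33%, 3.81% and 4.64% in GABA-only nuclei. Astrocyte markers were at 13.1%, 20.1% and 22.4% in members and 4.53%, 6.96% and 6.79% in glutamate-only nuclei, but at 10%, 21.8% and 27.8% in GABA-only nuclei. The summed levels of these lists in CPM, which do not grow with depth, were higher than in glutamate-only nuclei too: 414, 267 and 398 CPM of the oligodendrocyte list in members against 199.9, 129.8 and 129 CPM. The microglia list stood at 47, 48.6 and 75.4 CPM against 13.9, 15.7 and 20. GABA-only nuclei had 326, 323 and 449 CPM of the first list and 15, 65.4 and 78.5 CPM of the second, so members were above them in C57BL/6J and below them in *Nav1* KO and BTBR. *Mbp*, which encodes myelin basic protein, was the most abundant gene of the first list in BTBR members (177 CPM), and *C1qc* or *C1qa* that of the second in the members of each library (12.1, 14.6 and 26.3 CPM). No marker of either list was at 0 in members, and their part in the result was not tested.

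**Figure D4:**
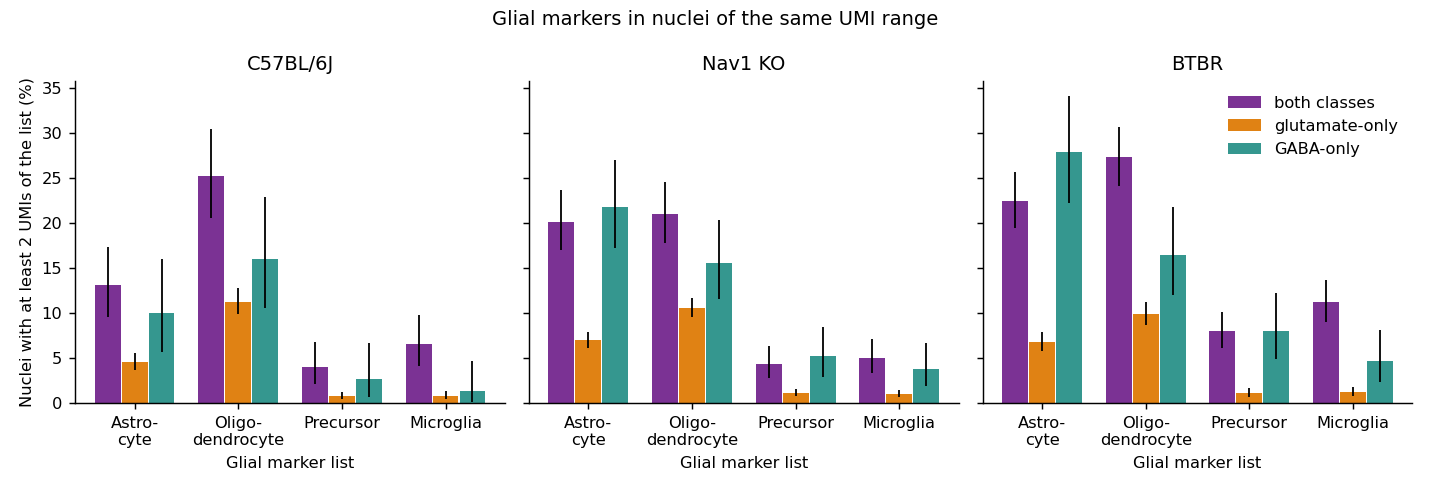
Share of nuclei (%) with at least 2 UMIs of 4 glial marker lists, in members, glutamate-only and GABA-only nuclei of the same UMI range, with exact 95% intervals. Members are above glutamate-only nuclei for each list in each library, and their shares are above GABA-only nuclei for oligodendrocyte and microglia markers, with intervals that lie apart in BTBR only.

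The levels of the rule genes were also read in nuclei that hold at least 3 markers of a glial list. Neurons were not left out of these nuclei. Within the members' UMI range 66.3%, 61.8% and 71.4% of the oligodendrocyte-marked nuclei held at least 2 UMIs of *Slc17a7*. Counts there may come from free RNA, from a shared droplet or from neurons that carry glial RNA, and these cannot be told apart here. In such nuclei under 2000 UMIs, *Slc17a7* stood at 214, 252 and 186 CPM in oligodendrocyte-marked and 198, 130.2 and 138 CPM in astrocyte-marked nuclei. The GABA sum stood at 89.6, 142 and 179.6 CPM and at 125, 91.1 and 110.1 CPM. Both classes were thus detected in glia-marked nuclei. Of the shallow oligodendrocyte-marked nuclei 0 of 245, 0 of 128 and 0 of 136 held both, which by the exact interval allows shares of up to 1.49%, 2.84% and 2.68% (medians 970.0, 1160 and 1058 UMIs), at depths where few nuclei of any kind met the rule. Within the members' UMI range 35 of 184 (19%), 45 of 207 (21.7%) and 95 of 227 (41.9%) oligodendrocyte-marked nuclei held both, with medians of 5035, 6236 and 8440 UMIs. In that range their *Slc17a7* stood at 455, 447 and 457 CPM and their GABA sum at 199.9, 252 and 332 CPM, beside 525, 600.3 and 640.1 CPM and 401, 444 and 423 CPM in members, which unlike these nuclei were chosen on the same genes. Some of these glia-marked nuclei were members by the rule, which does not set them apart from other members. The source of the rule genes' counts in these nuclei was not tested.

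By the 2 UMI minimum, members were less frequent than the separate frequencies of the 2 markers gave. The product of the shares of *Slc17a7* and GABA nuclei gave 471 nuclei in C57BL/6J, 892 in the *Nav1* KO and 1072 in BTBR, so the observed number was 0.851, 0.807 and 0.864 times the product. Within 10 classes of depth the products were 659.7, 1124 and 1403, and the ratios 0.608, 0.641 and 0.660. With at least 3 UMIs of each class in place of 2, the observed number was above the product in C57BL/6J and BTBR, at 1.21 and 1.11 times, and 0.921 times it in the *Nav1* KO. Pairs of a neuronal and a glial marker set lay on either side. *Slc17a7* with microglia markers was seen at 0.783, 0.780 and 0.857 times the product within depth, and with astrocyte markers at 0.633, 0.568 and 0.619 times. The GABA genes with microglia markers were seen at 1.95, 1.75 and 1.71 times and with oligodendrocyte markers at 1.28, 1.19 and 1.20 times. The glial pairs were not counted at the higher minimum, and the number of members is the rule's own count, so these ratios are a description.

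A doublet score compares each nucleus with artificial sums of 2 nuclei, and it was computed with the 4 rule genes left out. Scrublet itself called 0 nuclei as doublets in each library without the rule genes, and 1, 1 and 0 with them, so its calls did not work here and only the ranks of its score were used. Among members of the UMI range 28% in C57BL/6J, 31.8% in the *Nav1* KO and 25.1% in BTBR were in the highest 10% of scores of their library. Of glutamate-only nuclei of that range 15.5%, 13.6% and 13.2% were, and of GABA-only nuclei 12%, 11.8% and 13.5%. In each library the members' interval (23.2 to 33.3, 28 to 35.7 and 22 to 28.4) lay above those of both single-class sets. Nuclei of that range outside these sets that held some UMIs of the rule genes stood between, at 20.3% in C57BL/6J, 18.3% in the *Nav1* KO and 20.1% in BTBR, where their interval (17.8 to 22.7) overlapped that of members. Nuclei of that range with no UMI of the rule genes were at 16%, 11.6% and 17.5%, and in BTBR their interval (11.9 to 24.5) overlapped that of members too. Scores were higher in deeper nuclei, as the share of glutamate-only nuclei in the highest 10% was 11.2%, 10.5% and 8.92% at all depths, and members were the deeper set within the range. Over all members the shares were 27.2%, 31% and 23.3%, so most members were outside the highest 10%.

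**Figure D5:**
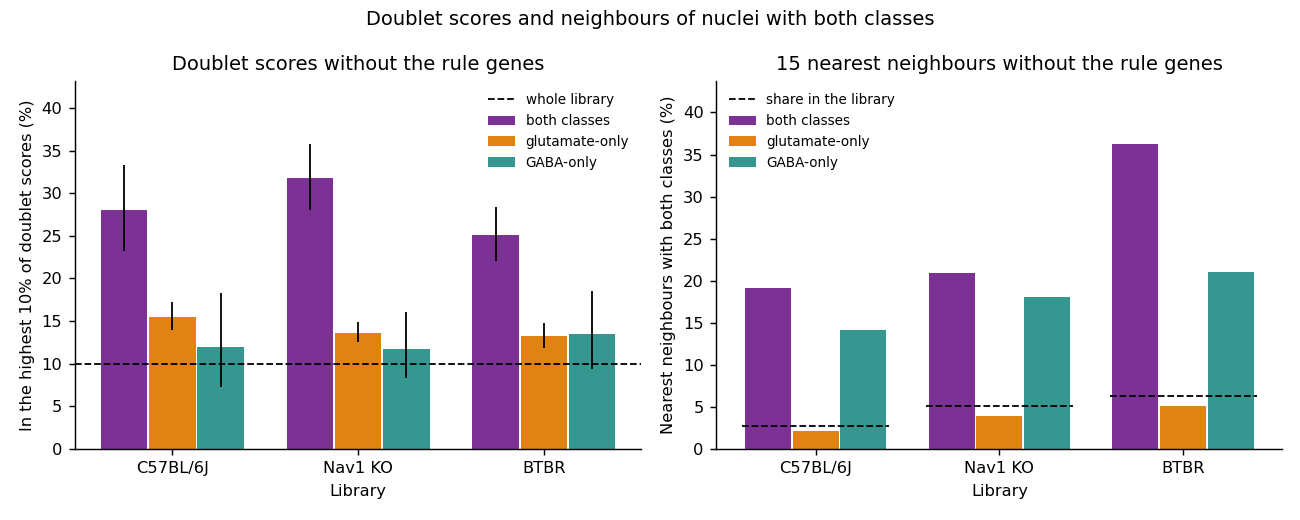
Left, share of nuclei (%) in the highest 10% of doublet scores, with exact 95% intervals; right, share (%) of the 15 nearest neighbours that were members, without intervals. Members, glutamate-only and GABA-only nuclei are of the same UMI range, dashed lines give the library as a whole, and the tallest bar on the right is that of BTBR members at 36.2%.

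Nearest neighbours were found in 10 principal components of 2000 variable genes, again without the rule genes. Of the 15 neighbours of a member, 19.1% were members in C57BL/6J, 20.9% in the *Nav1* KO and 36.2% in BTBR, against shares of 2.74%, 5.12% and 6.27% in the libraries. Members were also frequent near GABA-only nuclei (14.2%, 18.1% and 21% of neighbours) and less so near glutamate-only nuclei (2.13%, 3.91% and 5.08%). Glutamate-only nuclei made up 17.7%, 24.7% and 17.3% of the neighbours of members and GABA-only nuclei 11.9%, 13.6% and 10.9%. The neighbours of members were also deeper, with medians of 3851, 4312 and 5578 UMIs, against 2962, 3759 and 3395 for those of glutamate-only nuclei, and the part of depth in this nearness was not tested. Most members did not form a group of their own: most of the 15 neighbours were members for 20 of 321 in C57BL/6J (6.23%), 29 of 576 in the *Nav1* KO (5.03%) and 223 of 740 in BTBR (30.1%).

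BTBR stood apart by that last value. Its 223 members that lay mostly among members had a median of 10985 UMIs, against 7092 in the other 517, and the same median *Slc17a7* share of class UMIs, 60%. Myelin genes were higher in them, with 623 CPM of the oligodendrocyte list against 264 CPM, and 46.2% held at least 2 UMIs of it against 19.1%. Microglia markers were held by 19.7% against 7.54%. *Gjc3*, a connexin of oligodendrocytes, stood at 73 CPM against 22.1, and *Tshz2* at 162 CPM against 66.2. In *Nav1* KO the 29 such members also had more of both lists (44.8% against 19.7% for oligodendrocyte and 24.1% against 4.02% for microglia markers). The nuclei were picked by their neighbours, whose position rests on these genes too, so the values are a description.

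For genes named between libraries, here and below, members were of all depths and single-class nuclei were of the UMI range. The level of *Nav1* in the KO library was 0.729 times that of C57BL/6J in members, 0.806 in glutamate-only and 0.742 in GABA-only nuclei, and in BTBR 0.362, 0.405 and 0.415 times. The ratios of its relatives were closer to 1: *Nav2* stood at 477, 458 and 449 CPM in members and *Nav3* at 516, 417 and 451. Within a library *Nav1* was at similar levels in members and both single-class sets of the same range (402, 360.0 and 362 CPM in C57BL/6J).

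Members of different libraries differed past 1.5-fold in a minority of genes. Relative to C57BL/6J members 180 of 7735 tested genes were higher in *Nav1* KO members (2.33%) and 249 were lower (3.22%). In BTBR members 421 of 7897 were higher (5.33%) and 374 lower (4.74%). Both comparisons share the C57BL/6J library. Of the genes that were tested in glutamate-only nuclei as well, 57 of 140 higher and 74 of 202 lower genes in *Nav1* KO passed the same fold there, and 202 of 333 and 225 of 336 in BTBR. These were 57 of the 92 and 74 of the 111 genes past that fold in glutamate-only nuclei of *Nav1* KO, and 202 of 298 and 225 of 311 in BTBR. Tested in glutamate-only nuclei were 7274 genes for *Nav1* KO and 7436 for BTBR.

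The genes at the ends of the BTBR comparison had the same direction in single-class nuclei. *Lsm4*, an RNA splicing and decay factor, stood at 187 CPM in BTBR members and 9.30 in C57BL/6J members, a ratio of 20.1 (14.2 to 29.5), and the ratio was 21.9 in glutamate-only and 19.8 in GABA-only nuclei. *Sav1*, a scaffold of Hippo signaling, was at 219 and 18.9 CPM, a ratio of 11.6 (9.07 to 15.1). *Asna1* and *Cep19* followed at ratios of 7.07 and 5.86. At the low end *Galnt1*, an enzyme of protein glycosylation, was at 23.3 CPM against 264, a ratio of 0.0882 (0.0758 to 0.102). *AC149090.1*, *Gabarapl2* and *Klhl7* were lower at ratios of 0.223, 0.232 and 0.242. Each of these genes differed in the same direction in glutamate-only and in GABA-only nuclei.

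Of the 5 genes with the highest ratio in *Nav1* KO members, 3 had at least as large a ratio in GABA-only nuclei and a ratio near 1 in glutamate-only nuclei. *Shisa8*, an auxiliary protein of AMPA receptors, stood at 57.6 CPM in *Nav1* KO and 8.43 in C57BL/6J members (29 counts), a ratio of 6.84 (4.69 to 10.3), beside 9.21 in glutamate-only and 8.88 in GABA-only nuclei. *Ptgds*, the prostaglandin D synthase abundant in meninges, was at 439.9 and 135 CPM, a ratio of 3.27 (2.96 to 3.61), with ratios of 3.98 in glutamate-only and 12.3 in GABA-only nuclei. *Filip1l*, *Cpa6* and *Lgr5*, a receptor for R-spondins, had ratios of 4.10, 3.99 and 3.8 in members and 7.93, 4.25 and 5.60 in GABA-only nuclei, but 1.23, 1.23 and 1.14 in glutamate-only nuclei. No test of these differences between sets was made. *Filip1l* was among the 5 highest in BTBR too, at 67.5 CPM and a ratio of 4.22. At the low end of *Nav1* KO were *Gm13269*, *Gm26917*, *Mhrt*, *AY036118* and *Rasgrp2*. *Rasgrp2*, an exchange factor for Rap proteins known from striatum, stood at 21.8 CPM against 56.7, a ratio of 0.385 (0.309 to 0.479), beside 0.612 in glutamate-only and 0.426 in GABA-only nuclei.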

How the data were processed

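Counts of UMIs per gene and nucleus, which the authors deposited as 1 gene-by-barcode matrix per library, were made with Cell Ranger 6.0.0 on mm10 per the submitters' processing notes and were used without further normalization. The filter of 200 genes as a minimum and mitochondrial counts under 10% left 14630 of 15402, 14056 of 14623 and 14778 of 15238 barcodes. The series text gives 15238 nuclei for BTBR, the number before this filter. Members and marker lists were chosen with earlier results of these data known.

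Counts were summed over nuclei of a set and scaled to CPM, with 95% exact Poisson intervals for levels, exact binomial (Clopper-Pearson) intervals for shares and binomial-split intervals for ratios. Folds used to call a gene had 5 CPM added, ratios printed with intervals had none. Mice were pooled into 1 library per group, so no p-value was computed. Genes named were those of the rule, those of the marker lists, *Nav1*, the 5 highest and lowest against both single-class sets over the 3 libraries, and the 5 highest and lowest between libraries (reaching 50 CPM on 1 side, with a minimum of 20 counts on the other side); other names were chosen after their values were seen, and some genes under this rule are not reported here by name. The gene calls and the 2-part fit (non-negative least squares, genes of at least 10 CPM) were also run on simulated data, whose outcome is not given here. Doublet scores were those of Scrublet (expected rate 10%, in scanpy 1.11.5), which called 0 or 1 nuclei per library and has not worked as a caller, so no nucleus was removed as a doublet. Neighbours came from scikit-learn 1.9.0, other steps from numpy 2.4.6, scipy 1.17.1 and pandas 2.3.3 under Python 3.11.15. Alternatives covered the UMI minimum, GABA genes, nucleus filters, thinning, single-class definition, UMI range, amount added to each CPM, gene filter, score and neighbour settings.

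Summed levels of the lists not described above follow. Of the layer 5, layer 6b, middle layer, endothelial, pericyte or smooth muscle and meningeal fibroblast lists, members held 156, 21.3, 150.3, 5.63, 13.7 and 26.9 CPM (C57BL/6J), 196, 41.1, 168, 10.6, 49 and 50.7 CPM (the *Nav1* KO), and 182, 27.6, 197, 8.76, 47.8 and 37.7 CPM (BTBR). The RNA quality list (*Malat1* and *Meg3*) took 249742, 303203 and 261057 CPM.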

Additional observations from a re-analysis of the deposited data

How the results depend on the processing

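The share of nuclei with both classes, 2.74%, 5.12% and 6.27% in C57BL/6J, *Nav1* KO and BTBR, had that order of values under each alternative run. After thinning to 1000 UMIs the order rested on 8, 13 and 18 nuclei, and each ratio had an interval that included 1 (0.596 to 4.32 for *Nav1* KO over C57BL/6J, 0.898 to 5.77 for BTBR over C57BL/6J and 0.648 to 3.10 for BTBR over *Nav1* KO). It was 10.8%, 15.4% and 18.1% with at least 1 UMI of each class, 1.04%, 2.50% and 3.42% with at least 3, 2.04%, 3.97% and 5.04% without *Slc32a1*, 0.0654%, 0.102% and 0.142% after thinning to 1000 UMIs, 0.499%, 0.886% and 1.16% after thinning to 2000, and 6.34%, 9.08% and 11.1% of nuclei with at least 2 UMIs of either class. The ratio of *Nav1* KO to C57BL/6J was 1.42 with at least 1 UMI, 2.41 with at least 3, 1.55 after thinning to 1000 UMIs and 1.43 over nuclei of either class. That of BTBR to C57BL/6J was 1.68 with at least 1 UMI, 3.30 with at least 3 and 1.75 over nuclei of either class, and that of BTBR to *Nav1* KO 1.37 with at least 3 and 1.40 after thinning to 1000 UMIs.

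With at least 3 UMIs of each class the median UMIs were 3.08, 2.53 and 3.09 times those of glutamate-only nuclei. The number of nuclei with both classes was then 1.21 and 1.11 times the product of the shares in C57BL/6J and BTBR, above the product and so reversed, and 0.921 times in *Nav1* KO; it was 0.608, 0.641 and 0.660 times within depth classes and 0.869 times in *Nav1* KO with at least 1 UMI.

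The weight of the 2-part fit was 26.6%, 67.6% and 42.2%. With at least 3 UMIs of each class it became 62.9%, 76% and 48%, without the highest doublet scores 32.3% in C57BL/6J and 57.4% in BTBR, and, by alternatives chosen after seeing the data, 62.3% and 65.6% without *Malat1* and 62.1% and 61.3% as a median position in those libraries.

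Genes above both single-class sets numbered 9, 0 and 1, and became 59, 10 and 6 in the narrower UMI range, 77, 7 and 4 with at least 3 UMIs, 22, 1 and 3 without the highest doublet scores and 18, 1 and 3 with 1 CPM added; with the other class at up to 1 UMI they were 4 in C57BL/6J and 0 in BTBR. Genes below both, 2, 0 and 0, became 1 with the other class at up to 1 UMI, 15 in the narrower range, 19 with at least 3 UMIs and 4 with 1 CPM added in C57BL/6J, 1 in the narrower range in *Nav1* KO, and 1 in BTBR with at least 3 UMIs, without the highest scores or with 1 CPM added. The cause of these changes was not tested. In the highest 5% of scores were 14.5%, 13.6% and 9.50% of members, and with 20 principal components 29.98% and 40.4% of neighbours were members in *Nav1* KO and BTBR. Gene counts between libraries and the GABA list shares moved by less than their limits under the alternatives run, but with the other class at up to 1 UMI the olfactory bulb share of GABA-only nuclei in *Nav1* KO was 47.2% (41.4 to 53), an interval that overlapped that of members.

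No paired analysis was possible because each group was 1 library, and for the same reason no replicate was left out. Mice were pooled and group cannot be told apart from library, preparation or dissection. Shares of nuclei with few UMIs depend on depth, and genes that reached 20 CPM in no set were not counted as higher or lower.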
